A study of Arabidopsis thaliana with 24 samples.

Results

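PR1 (AT2G14610), PR2 (AT3G57260) and PR5 (AT1G75040) are pathogenesis-related genes of Arabidopsis thaliana, and they were taken from the table of gene counts by their locus identifiers. They are 3 of its 33602 loci, and all 3 were among the 20347 that passed the filter on low counts. The counts come from RNA sequencing of shoots of 3-week-old seedlings, with 3 libraries in each of 8 groups. The groups are the double mutant cat2shr, the mutant shr, the mutant cat2 and wild-type Col-0, all in the Columbia-0 background, each at 24 h of photorespiratory stress and at 0 h. The stress was a change of plate seal to Parafilm, which limits gas exchange, together with continuous light. No unstressed group was harvested at 24 h among the samples analysed here, so the seal, the light and the passing of a day cannot be told apart. The labels name no alleles and do not say whether the libraries of a group came from separate plantings, so p-values measure the spread between these libraries, which may be technical.

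PR proteins are secreted proteins that plants make when they are attacked or when defence is switched on without an attacker. PR1 belongs to a family of small cysteine-rich secreted proteins, PR2 is a beta-1,3-glucanase that cuts glucans of fungal and oomycete walls, and PR5 is a thaumatin-like protein. The 3 genes are the usual markers of salicylic acid signalling, in which the coactivator NPR1 works with TGA transcription factors, which bind TGACG, and WRKY factors bind the core TTGAC. CAT2 encodes the main catalase of leaves, which removes hydrogen peroxide formed in photorespiration, and cat2 plants are known for switching on salicylic acid genes in some light regimes. SHR (SHORT-ROOT) is a transcription factor best known for patterning the root.

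The DNA before PR2 and PR5 is shown because the genes varied together and because TGA and WRKY factors bind TGACG and TTGAC. The sequences are the 300 bases upstream of the annotated start in the RefSeq annotation of TAIR10.1, read on the strand of the gene, and capitals mark TGACG or TTGAC on either strand. They lie at chr3:21189968-21190267 (minus strand) for PR2 and chr1:28177370-28177669 (plus strand) for PR5.
PR2: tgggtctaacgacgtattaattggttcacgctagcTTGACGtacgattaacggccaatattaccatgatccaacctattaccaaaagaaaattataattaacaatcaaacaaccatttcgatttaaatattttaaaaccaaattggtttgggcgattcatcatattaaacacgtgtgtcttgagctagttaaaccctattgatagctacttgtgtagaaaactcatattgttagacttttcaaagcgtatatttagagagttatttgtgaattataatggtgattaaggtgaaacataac
PR5: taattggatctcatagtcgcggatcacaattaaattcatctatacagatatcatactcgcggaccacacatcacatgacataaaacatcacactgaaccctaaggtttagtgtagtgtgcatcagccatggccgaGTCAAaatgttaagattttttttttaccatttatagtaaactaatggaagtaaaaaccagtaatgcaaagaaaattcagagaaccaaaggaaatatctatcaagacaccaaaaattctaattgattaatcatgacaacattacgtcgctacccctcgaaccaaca
Both windows held TTGAC on one strand, and so did 50.4% of the windows of the same length at 27443 protein-coding genes. TGACG occurred in the window of PR2, where it overlaps TTGAC from 265 to 260 bases before the start, and in 21.3% of all windows. PR5 had no TGACG within 1000 bases, where 54.1% of all genes had one. A match is a string of letters, not a site shown to be bound.

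The 24 libraries held 26.43 to 40.11 M counts. CAT2 averaged 17.5 to 31.6 CPM (counts relative to library size, scaled by the TMM method) in the groups labelled cat2 and cat2shr, against 209 to 890 CPM in the groups with an intact gene. SHR averaged 0.466 to 1.04 CPM in the groups labelled shr and cat2shr, against 5.31 to 9.96 CPM in the others, so the levels matched the labels in every group. The 4 leaf genes checked summed to 10300 to 50700 CPM per library, the 7 root markers to 16.4 to 35.5 CPM and the 6 floral markers to 0.905 to 7.48 CPM. The first libraries of shr at 0 h and of cat2shr at 0 h stood farthest from their groups, with 1172 and 1021 genes more than 2-fold away. No annotated gene overlaps any of the 3 PR genes, and the longest exact run shared with the closest relatives was 23 bases for PR1, 23 for PR2 and 30 for PR5.

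PR1 spanned the widest range of the 3 genes. In cat2shr it had 119, 35.8 and 21.9 CPM at 24 h, against 127, 17.1 and 75.5 CPM at 0 h. In shr it had 61.7, 63.8 and 90.9 CPM at 24 h, against 21.9, 10.4 and 35.3 CPM at 0 h, and the 2 times did not overlap. The 6 cat2shr libraries spanned 17.1 to 127 CPM, and the 6 of shr lay at 10.4 to 90.9 CPM. In cat2 it had 14.3, 21.1 and 0.256 CPM at 24 h, against 1.14, 25.6 and 1.18 CPM at 0 h. In Col-0 it had 0.627, 0.581 and 1.61 CPM at 24 h, against 0.129, 0.0701 and 0.0388 CPM at 0 h, the last group resting on 7 counts in all. A single cat2 library at 0 h was near the level of shr, and a single cat2 library at 24 h was below all of Col-0 at 24 h. Set against the 7 counts of Col-0 at 0 h, PR1 was 272 times as abundant in shr at 0 h, with an exact 95% interval of 132 to 678 that covers counting error only.

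PR2, the glucanase gene, kept nearer together within groups and was high in shr at both times. In cat2shr it had 93.1, 38.7 and 35.3 CPM at 24 h, against 83.9, 16 and 27.4 CPM at 0 h. In shr it had 77.7, 91.1 and 96.5 CPM at 24 h, against 111, 73.7 and 61.2 CPM at 0 h. The times overlapped in both mutants. In cat2 it had 25.7, 44.4 and 7.64 CPM at 24 h, against 2.78, 26.3 and 6.78 CPM at 0 h. In Col-0 it had 5.09, 3.06 and 2.29 CPM at 24 h, against 1.78, 1.82 and 1.74 CPM at 0 h. The 3 Col-0 libraries at 24 h were all above the 3 at 0 h.

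PR5, the thaumatin-like gene, varied least. In cat2shr it had 11.3, 5.15 and 6.62 CPM at 24 h, against 16.6, 6.09 and 7.07 CPM at 0 h. In shr it had 12.7, 13.3 and 14.1 CPM at 24 h, against 20.6, 12.6 and 18.4 CPM at 0 h. The levels of the 2 times overlapped in both. In cat2 it had 2.17, 2.7 and 1.8 CPM at 24 h, against 2.18, 5.22 and 3.2 CPM at 0 h. In Col-0 it had 1.29, 1.78 and 1.85 CPM at 24 h, against 2.03, 1.75 and 1.71 CPM at 0 h. These again overlapped between times.

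**Figure D1:**
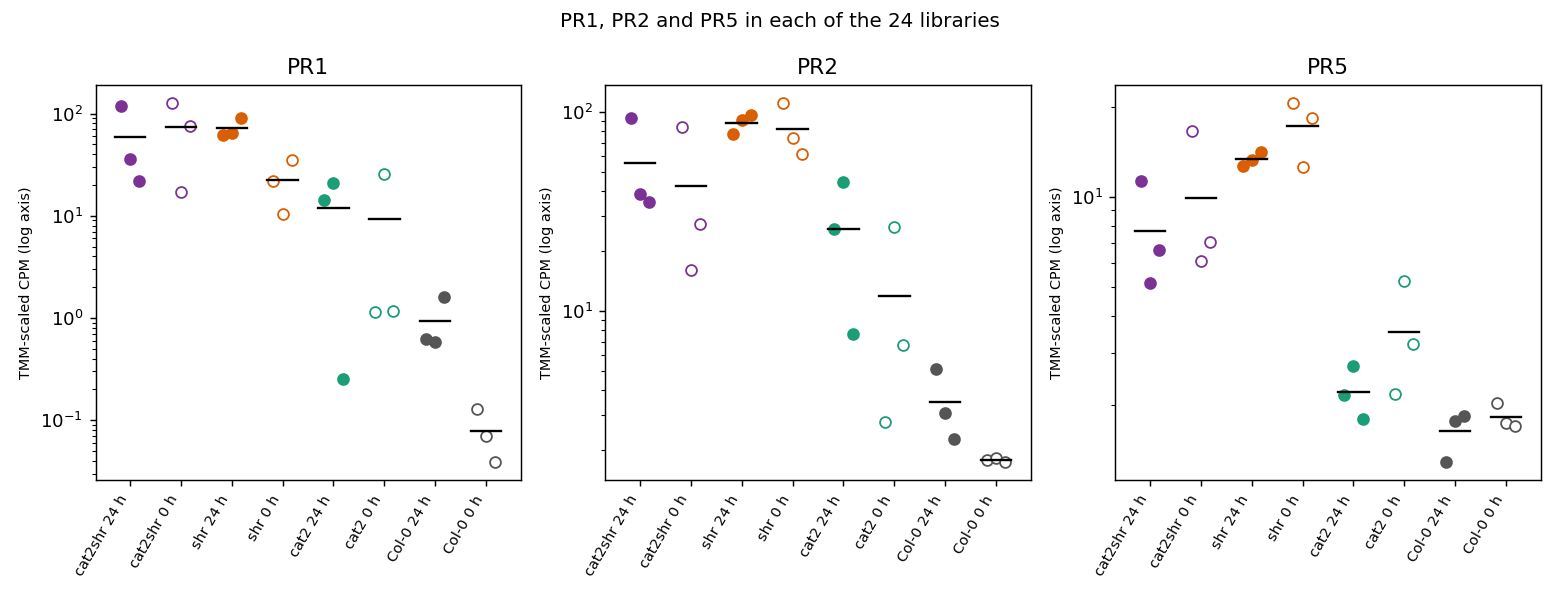
Level of PR1, PR2 and PR5 in each library (points, filled at 24 h and open at 0 h) and the mean of the 3 libraries (bars), in TMM-scaled CPM on a log axis. The cat2shr and shr libraries lie mostly above those of cat2 and Col-0, and the cat2 libraries of PR1 spread from 0.256 to 25.6 CPM.

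The split by SHR was cleanest in PR5. Over the 12 shr and cat2shr libraries PR5 had a lowest, median and highest value of 5.15, 12.6 and 20.6 CPM, against 1.29, 1.94 and 5.22 CPM in the 12 cat2 and Col-0 libraries. Among the libraries with SHR, 1, the second of cat2 at 0 h, exceeded the lowest library without SHR. The same values for PR1 were 10.4, 48.7 and 127 CPM against 0.0388, 0.883 and 25.6 CPM. For PR2 they were 16, 75.7 and 111 CPM against 1.74, 4.07 and 44.4 CPM. In PR1 and in PR2, 3 cat2 libraries exceeded the lowest library without SHR, and no Col-0 library did.

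Ordered by group mean, PR1 ran from cat2shr at 0 h (73.2 ± 55 CPM, SD, n = 3) through shr at 24 h, cat2shr at 24 h, shr at 0 h, cat2 at 24 h, cat2 at 0 h and Col-0 at 24 h to Col-0 at 0 h (0.0793 ± 0.0459 CPM). PR2 ran from shr at 24 h (88.4 ± 9.69 CPM) through shr at 0 h, cat2shr at 24 h, cat2shr at 0 h, cat2 at 24 h, cat2 at 0 h and Col-0 at 24 h to Col-0 at 0 h (1.78 ± 0.0392 CPM). PR5 ran from shr at 0 h (17.2 ± 4.13 CPM) through shr at 24 h, cat2shr at 0 h, cat2shr at 24 h, cat2 at 0 h, cat2 at 24 h and Col-0 at 0 h to Col-0 at 24 h (1.64 ± 0.304 CPM). Each neighbouring pair in these orders overlapped between libraries, except Col-0 at 24 h and Col-0 at 0 h for PR1 and for PR2. Per kilobase of exon, PR1, PR2 and PR5 averaged 79.9 ± 18.1, 59.9 ± 6.56 and 12.2 ± 0.675 CPM in shr at 24 h. In Col-0 at 0 h the order of these per-kilobase levels was the opposite, with 0.0879 ± 0.0509 CPM for PR1, 1.21 ± 0.0265 CPM for PR2 and 1.67 ± 0.163 CPM for PR5 (SD, n = 3 each).

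The 3 genes often peaked in the same library of a group. PR1 and PR5 shared their highest library in 7 of the 8 groups, PR2 and PR5 in 6, PR1 and PR2 in 5, and all 3 in 5. Over the 24 libraries, Pearson's r of log2 CPM was 0.921 between PR1 and PR2, 0.884 between PR2 and PR5 and 0.827 between PR1 and PR5. These are descriptions over libraries that share groups and carry no test.

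The stress responses asked what 24 h of stress did in each genotype. None of PR1, PR2 and PR5 was called in any of the 4 genotypes by edgeR's quasi-likelihood test (adjusted p under 0.05, Benjamini-Hochberg over all 20347 genes), although 64.4% of genes were called in cat2shr, 41.3% in shr, 75.0% in cat2 and 59.3% in Col-0. In cat2shr the log2 fold changes were -0.31 ± 0.98 (SE) for PR1, 0.39 ± 0.67 for PR2 and -0.37 ± 0.34 for PR5, with 95% intervals of -2.38 to 1.75, -1.03 to 1.81 and -1.08 to 0.35. In shr they were 1.68 ± 1.02, 0.11 ± 0.67 and -0.36 ± 0.33, with intervals of -0.46 to 3.82, -1.29 to 1.51 and -1.06 to 0.34. In cat2 they were 0.34 ± 1.07, 1.11 ± 0.71 and -0.67 ± 0.39, with intervals of -1.91 to 2.59, -0.38 to 2.61 and -1.49 to 0.14. In Col-0 they were 3.44 ± 3.08, 0.97 ± 0.96 and -0.17 ± 0.43, with intervals of -3.05 to 9.92, -1.05 to 2.99 and -1.07 to 0.74. None of these 12 values had an unadjusted p under 0.05. The intervals are wide for PR1 and PR2 and include changes of several-fold in either gene.

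Whether PR1, PR2 or PR5 was called depended in some genotypes on the fit or on 1 library. With only the Col-0 libraries fitted, PR1 (log2 3.44 ± 0.63, adjusted p = 0.0011) and PR2 (0.98 ± 0.28, adjusted p = 0.0139) were called higher at 24 h, and DESeq2 called PR1 (3.56, adjusted p = 0.0104). With only the shr libraries fitted, PR1 was called (1.67, adjusted p = 0.0441). Without the second cat2 library at 0 h, the high one for all 3 genes, PR1 (3.28, adjusted p = 0.03) and PR2 (2.38, adjusted p = 0.0101) were called in cat2. PR5 was called lower in cat2 without its first library at 0 h (-0.98, adjusted p = 0.0368).

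The comparison of shr with Col-0 asked what the loss of SHR did in plants with an intact CAT2, and here all 3 genes were higher at both times. The level of CAT2 was not equal in these plants. It averaged 209 ± 73.1 CPM in shr against 374 ± 150 CPM in Col-0 at 0 h (SD, n = 3 each). At 24 h it averaged 380 ± 97.9 CPM in shr against 890 ± 221 CPM in Col-0. The part of CAT2 level in the PR values was not tested. At 0 h PR1 was higher by log2 8.03 ± 1.98 (adjusted p = 0.0033), PR2 by 5.52 ± 0.89 (adjusted p = 9.34e-05) and PR5 by 3.22 ± 0.39 (adjusted p = 3.75e-06), where 45.3% of all genes were called in either direction and 21.3% higher. The fitted folds of PR2 and PR5 were 46 and 9.34. At 24 h PR1 was higher by log2 6.27 ± 1.41 (adjusted p = 0.00117), PR2 by 4.66 ± 0.83 (adjusted p = 0.000138) and PR5 by 3.03 ± 0.40 (adjusted p = 4.04e-06), where 52.7% of genes were called and 25.8% higher. Every shr library was above every Col-0 library of its time in all 3 genes, but the share of all genes so separated was not computed. The leaf genes checked summed to 20100 to 24700 CPM in shr at 24 h, against 24500 to 31900 CPM in Col-0 at 24 h, and to 36900 to 38400 CPM in shr at 0 h, against 47800 to 50700 CPM in Col-0 at 0 h. Of the 3 root markers tested, the phosphate transporter gene PHT1;1 was higher in shr (2.58 at 0 h and 3.4 at 24 h). The root marker SCR was lower in shr at 24 h (-0.29, adjusted p = 0.00308) and not called at 0 h, and the remaining marker was not called. The whole root list summed to 27 to 30.1 CPM in shr at 24 h, against 33.2 to 35.3 CPM in Col-0 at 24 h. Of the 5 floral markers tested, 1 was lower at 0 h and 2 at 24 h. The part of these markers in the PR values was not tested. In shoots a difference in how many cells express a gene and one in the RNA per cell cannot be told apart.

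In cat2 against Col-0, PR1 and PR2 were higher and PR5 was not called. At 0 h, where 23.3% of genes were called and 11.5% higher, PR1 was higher by log2 6.75 ± 2.12 (adjusted p = 0.0285) and PR2 by 2.74 ± 0.87 (adjusted p = 0.0308), with PR5 at 0.94 ± 0.40 (adjusted p = 0.0938, interval 0.11 to 1.78). At 24 h, where 64.1% were called and 31.4% higher, PR1 was higher by 3.66 ± 1.42 (adjusted p = 0.0316) and PR2 by 2.88 ± 0.80 (adjusted p = 0.0044), with PR5 at 0.43 ± 0.42 (adjusted p = 0.382). At 0 h both calls were lost without the second cat2 library, with log2 3.77 (adjusted p = 0.337) for PR1 and 1.44 (adjusted p = 0.273) for PR2. They were also lost without any 1 of the 3 Col-0 libraries and with only the 2 groups fitted (adjusted p = 0.0828 and 0.0879). PR5 at 0 h was called in 5 of 15 alternatives, among them DESeq2 (adjusted p = 0.0394). The call of PR1 at 24 h was lost without any 1 Col-0 library, without the first cat2 library (adjusted p = 0.0617) or the second (adjusted p = 0.123), without a filter on low counts (adjusted p = 0.0541) and with the replicate number as a block (adjusted p = 0.0568). The call of PR2 at 24 h held in all 15 alternatives. Leaf markers moved with this comparison, with 3 of 4 lower at 0 h and 4 of 4 at 24 h, where 11.8% and 32.7% of all genes were lower. They summed to 10300 to 14100 CPM in cat2 at 24 h, against 24500 to 31900 CPM in Col-0 at 24 h, and to 30100 to 31100 CPM in cat2 at 0 h, against 47800 to 50700 CPM in Col-0 at 0 h. The root list summed to 16.4 to 18.7 CPM in cat2 at 24 h, against 33.2 to 35.3 CPM in Col-0 at 24 h, and of 5 floral markers 1 was lower at 0 h and 1 higher at 24 h. Their part in the PR values was not tested.

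In the double mutant, cat2shr against cat2 asked what the loss of SHR did in the cat2 background. PR5 was higher at both times, by log2 1.49 ± 0.36 at 0 h (adjusted p = 0.00377, 34.9% of genes called and 17.2% higher) and by 1.80 ± 0.37 at 24 h (adjusted p = 0.000505, 55.1% called and 27.0% higher). PR1 was higher at 0 h by 2.98 ± 1.09 (adjusted p = 0.0414) and was not called at 24 h (2.32 ± 1.06, adjusted p = 0.0713, interval 0.10 to 4.55). PR2 was not called at 0 h (1.83 ± 0.72, adjusted p = 0.055, interval 0.33 to 3.34) or at 24 h (1.11 ± 0.69, adjusted p = 0.181, interval -0.33 to 2.55). The call of PR1 at 0 h was lost with the block (adjusted p = 0.0648), without a filter on low counts (adjusted p = 0.0654) and with only the 2 groups fitted (adjusted p = 0.148). It was also lost without cat2shr library 1 (2.32, adjusted p = 0.132) or 3 (adjusted p = 0.0694) and without cat2 library 1 or 3 (2.45, adjusted p = 0.128 each). PR2 at 0 h was called by DESeq2 (adjusted p = 0.0312), without the second cat2 library (3.15, adjusted p = 0.00695) and without the second cat2shr library (2.22, adjusted p = 0.0318). PR5 at 0 h was lost with only the 2 groups fitted (adjusted p = 0.072), and its call at 24 h held in all 15 alternatives. At 24 h 4 of 5 floral markers were lower in cat2shr, where the floral list summed to 1.07 to 1.64 CPM, against 2.76 to 7.48 CPM in cat2. Of 3 root markers 1 was higher at 0 h and 2 at 24 h, PHT1;1 by log2 2.27 and 2.21. Of 4 leaf markers 1 was higher and 2 lower at 0 h, and 1 higher and 1 lower at 24 h. Their part in the PR values was not tested.

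Against shr, cat2shr asked what the loss of CAT2 did in plants without SHR, and no PR gene was called by edgeR's test, with PR5 at an unadjusted p under 0.05 at each time. At 0 h the log2 fold changes were 1.70 ± 1.02 for PR1, -0.95 ± 0.68 for PR2 and -0.79 ± 0.34 for PR5, with adjusted p of 0.387, 0.481 and 0.206 and 3.03% of genes called. Without the first cat2shr library at 0 h, PR5 was called lower (-1.38, adjusted p = 0.0172). At 24 h they were -0.29 ± 0.98, -0.67 ± 0.67 and -0.80 ± 0.34, with adjusted p of 0.821, 0.417 and 0.0539 and 55.2% of genes called. PR5 at 24 h lay close to the threshold, and 8 of 15 alternatives called it lower, DESeq2 among them (-0.81, adjusted p = 0.0384). These comparisons share groups, since Col-0 libraries serve both single mutants and cat2 libraries serve both cat2 comparisons.

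**Figure D2:**
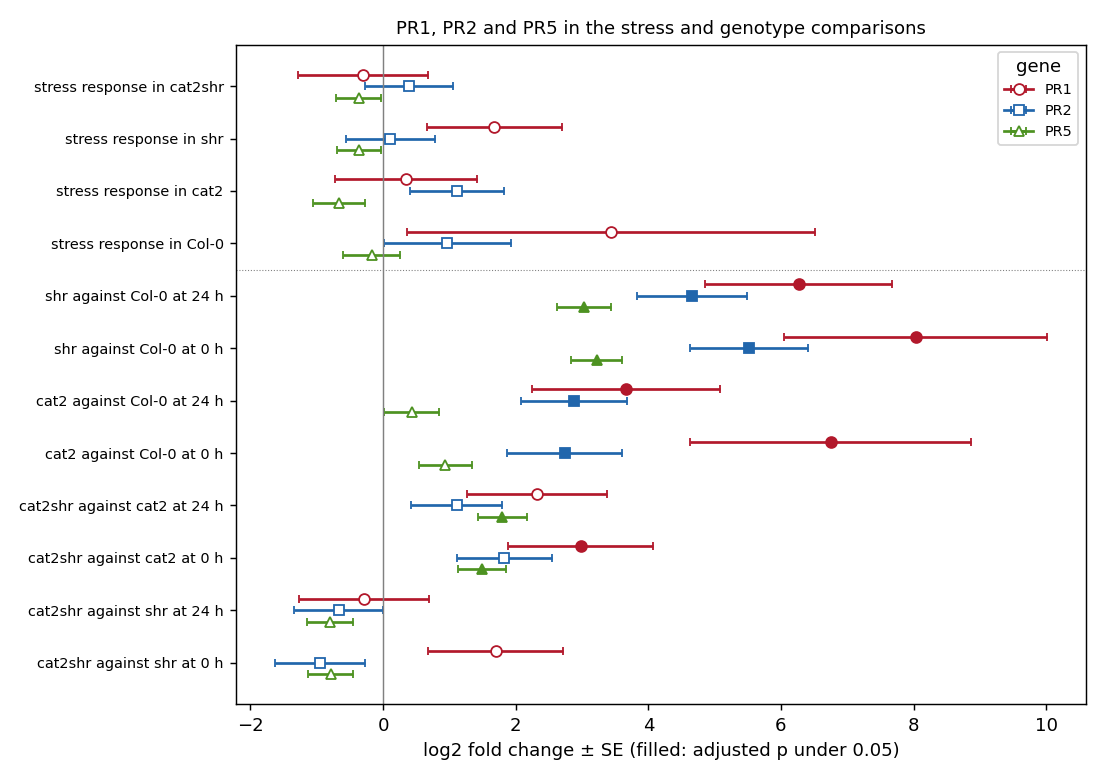
log2 fold change ± SE of PR1 (circles), PR2 (squares) and PR5 (triangles) in the 4 stress responses (upper rows) and the 8 genotype comparisons (lower rows), with filled symbols where adjusted p was under 0.05. All 3 genes are filled only in shr against Col-0, at log2 3.03 to 8.03, and no stress response is filled.

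Tests of whether one genotype responded to stress differently from another called none of the 3 genes by edgeR's test or by DESeq2, and none had an unadjusted p under 0.05. For cat2shr against cat2 the differences in log2 response were -0.65 ± 1.45 for PR1, -0.72 ± 0.98 for PR2 and 0.31 ± 0.52 for PR5, where 30.9% of genes were called. For cat2shr against shr they were -1.99 ± 1.41, 0.28 ± 0.95 and -0.01 ± 0.47, with 35.3% called. For shr against Col-0 they were -1.76 ± 3.55, -0.86 ± 1.17 and -0.19 ± 0.55, with 25.7% called. For cat2 against Col-0 they were -3.10 ± 3.37, 0.14 ± 1.21 and -0.51 ± 0.58, with 38.2% called. The three-way term was 1.1 ± 3.92 for PR1, 0.14 ± 1.51 for PR2 and 0.50 ± 0.75 for PR5, with 13.7% called. The adjusted p ranged upward from 0.287, for PR1 in cat2shr against shr, and the interval there was -4.96 to 0.97.

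The genes whose levels ran most like those of the PR genes were ranked by Pearson's r of log2 CPM over the 24 libraries, among 14637 genes with a mean of at least 5 CPM. PR1 was closest to RLP23, a receptor-like protein that senses a peptide of microbial proteins (r = 0.927), then to PR2, which RefSeq names BGL2, AT5G49680 (0.9), EXT3 (0.899), a cell wall extensin, and TRP1 (0.891), of tryptophan synthesis. PR2 was closest to EXT3 (0.951), RLP23 (0.941), TRP1 (0.926), PR1 and AT5G49680 (0.917). PR5 had other neighbours, namely GDPD5 (0.958), OMTF3 (0.943), AT5G53048 (0.933), PPC1 (0.93), a phosphoenolpyruvate carboxylase, and AT4G14020 (0.928). RLP23 averaged 20.1 ± 5.12 CPM in shr at 24 h and 14.9 ± 2.14 CPM in shr at 0 h, against 2.85 ± 0.455 and 0.637 ± 0.111 CPM in Col-0 at those times. GDPD5 averaged 30.7 ± 1.07 and 36.5 ± 5.95 CPM in shr, against 6.34 ± 0.944 and 8.39 ± 1.04 CPM in Col-0 (SD, n = 3 each).

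Salicylic acid is made through ICS1, EDS5 and PBS3, while ALD1 and FMO1 make the signal N-hydroxypipecolic acid. In shr against Col-0 at 0 h 6 of the 11 genes of these branches were higher and 1 lower, where 21.3% of all genes were higher and 24.1% lower, with a median log2 of 0.75 against -0.03 over all genes. ICS1 itself was not called, at log2 0.54 ± 0.30 (adjusted p = 0.158) at 0 h and 0.44 ± 0.30 (adjusted p = 0.24) at 24 h. ICS1 had 17.8, 22.9 and 20.6 CPM in shr at 24 h, against 14.7, 16.8 and 13.9 CPM in Col-0 at 24 h. ALD1 and FMO1 had no count in Col-0 at 0 h, and against the floor of 3 counts over the group they were at least 39.6-fold and 36.6-fold higher in shr. At 24 h 7 of the 11 were higher in shr, where 25.8% of all genes were, ALD1 by log2 2.07 ± 0.75 (adjusted p = 0.0278) and FMO1 by 3.25 ± 1.05 (adjusted p = 0.0163).

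Of 25 signalling genes, 8 were higher and 1 lower in shr against Col-0 at 0 h, with a median log2 of 0.06, and 7 were higher and 5 lower at 24 h, with a median of 0.29. The 9 called at 0 h are a smaller share than the 45.3% of all genes called, and the 12 at 24 h are near the 52.7%. By direction, the 8 higher at 0 h are a larger share than the 21.3% of all genes higher. The 7 higher at 24 h are near the 25.8% of all genes. The 1 and 5 lower are smaller shares than the 24.1% and 26.9% of all genes lower. SARD1, which activates ICS1, was higher at 0 h (2.17 ± 0.37, adjusted p = 0.000148) and at 24 h (1.14 ± 0.35, adjusted p = 0.00983), and its partner CBP60g at 0 h (1.55 ± 0.34, adjusted p = 0.00133). The regulators EDS1, PAD4, NPR1 and WRKY70 were not called at 0 h, at log2 -0.20, 0.33, -0.08 and -0.94. NPR1 was slightly lower at 24 h (-0.31 ± 0.11, adjusted p = 0.0279). All 6 genes that glycosylate, methylate or hydroxylate salicylic acid were higher in shr at 0 h, against 21.3% of all genes, with a median log2 of 4.29, or 3.11 with BSMT1, which had no count in Col-0, at its bound. At 24 h 2 of the 6 were higher, against 25.8% of all genes.

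In cat2shr against cat2 at 24 h PR5 was higher, while more of the signalling genes were lower than higher. Of the 25, 14 were lower and 4 higher, where 28.1% of all genes were lower and 27.0% higher, with a median log2 of -0.49 against -0.01 over all genes, and 3 of the 11 synthesis genes were lower and 1 higher. SAG101 (-1.56 ± 0.11, adjusted p = 6.41e-10), a partner of EDS1, CBP60g (-2.92 ± 0.33, adjusted p = 6.87e-07), EDS1 (-1.30 ± 0.16, adjusted p = 9.05e-07) and ICS1 (-1.46 ± 0.30, adjusted p = 0.000486) were lower, and the TGA factor gene TGA7 was higher (1.17 ± 0.14, adjusted p = 6.63e-07). NPR1 (-0.79 ± 0.11, adjusted p = 6.92e-06), SARD1 (-1.10 ± 0.34, adjusted p = 0.0105) and WRKY70 (-1.54 ± 0.55, adjusted p = 0.0235) were lower too, and PAD4 was not called (-0.53 ± 0.25, adjusted p = 0.0778). CBP60g had 11.8, 10.6 and 9.54 CPM in cat2shr, against 72.1, 110 and 59.9 CPM in cat2, without overlap. Among the same libraries PR1 and PR2 had positive log2 values that were not called.

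**Figure D3:**
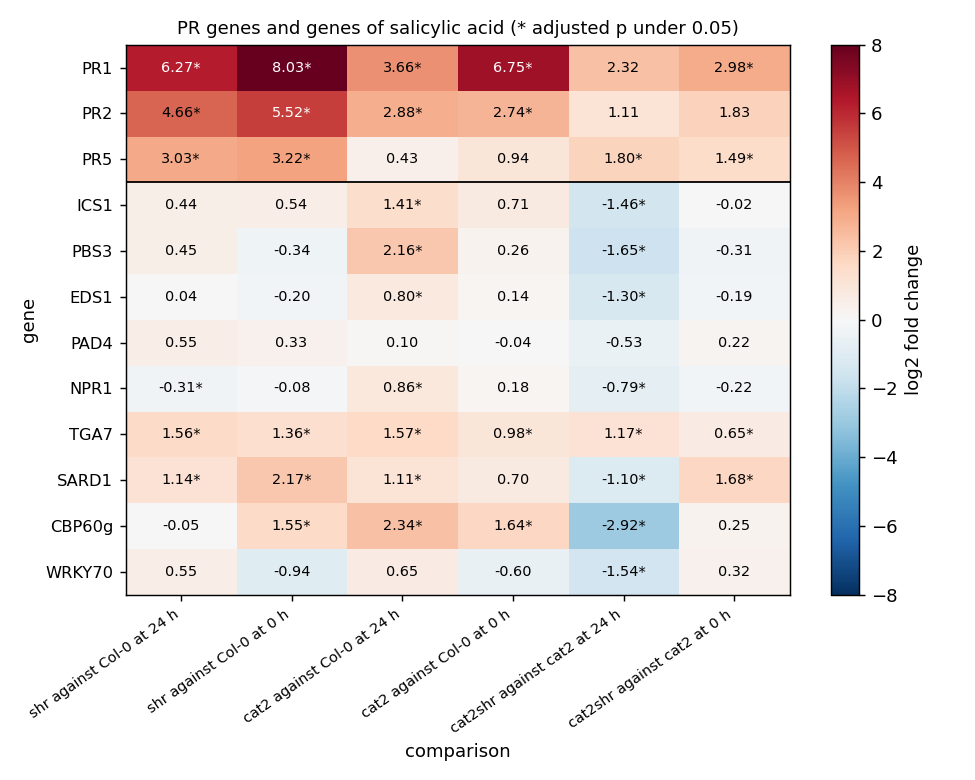
log2 fold change of PR1, PR2, PR5 (above the line) and genes of salicylic acid synthesis and signalling (below it) in 6 genotype comparisons, with an asterisk where adjusted p was under 0.05. In cat2shr against cat2 at 24 h PR5 is at 1.80 while ICS1 is at -1.46 and CBP60g at -2.92.

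Under stress the share of signalling genes called in either direction was near or below that of all genes. The signalling list had 6 higher and 9 lower in cat2shr, 3 and 4 in shr, 13 and 3 in cat2 and 9 and 6 in Col-0, with median log2 of -0.47, 0.08, 0.43 and 0.01, against 0, -0.02, 0.03 and 0 over all genes. Of all genes 64.4%, 41.3%, 75.0% and 59.3% were called in these genotypes. Among all genes 32.7%, 20.4%, 38.7% and 29.7% were higher and 31.7%, 20.9%, 36.3% and 29.6% lower. The 13 higher in cat2 were a larger share than these and the 9 in Col-0 a slightly larger one, and the 6 in cat2shr and 3 in shr were smaller. The 9 lower in cat2shr were a slightly larger share, and those lower in the other genotypes were smaller shares. Apart from cat2, these differences amount to few genes, and none was tested. In cat2, CBP60g rose by log2 2.42 ± 0.32 (adjusted p = 1.81e-06), SARD1 by 1.73 ± 0.36 (adjusted p = 0.000223), NPR1 by 0.68 ± 0.11 (adjusted p = 1.6e-05) and ICS1 by 0.95 ± 0.30 (adjusted p = 0.00753). In cat2shr, EDS1 fell by 0.80 on the log2 scale (SE 0.16, adjusted p = 0.000176) and PAD4 by 0.91 (SE 0.25, adjusted p = 0.00328). The difference between the responses of cat2shr and cat2 was called for CBP60g (-3.17 ± 0.45, adjusted p = 4.99e-05), SARD1 (-2.78 ± 0.49, adjusted p = 0.000349) and ICS1 (-1.44 ± 0.42, adjusted p = 0.0148). It was not called for PR1, PR2 or PR5.

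Among the relatives, the glucanase gene beside PR2 was higher without SHR, and the families of PR1 and PR5 had called members in both directions. Of 21 listed members of the PR1 family 6 were tested, and in shr against Col-0 at 0 h 2 were higher and 2 lower, with a median log2 of 0.26, where 45.3% of all genes were called. PRB1, a basic member of the family, was not called in shr at 0 h (0.63 ± 0.52, adjusted p = 0.341) or at 24 h (-0.11 ± 0.51, adjusted p = 0.871). It had 4.18, 3.98 and 4.52 CPM in shr at 0 h, against 3.94, 1.58 and 2.64 CPM in Col-0 at 0 h. Under stress PRB1 rose in cat2shr (1.39 ± 0.54, adjusted p = 0.0296) and in cat2 (2.13 ± 0.55, adjusted p = 0.00183), where PR1 was not called. BG3, the glucanase gene beside PR2 on the chromosome, was higher in shr at 0 h (3.02 ± 0.59, adjusted p = 0.000503) and at 24 h (3.23 ± 0.58, adjusted p = 0.00013). In cat2shr against cat2 it was also higher, by 3.04 ± 0.70 at 0 h (adjusted p = 0.0028) and 2.67 ± 0.70 at 24 h (adjusted p = 0.00334). BG3 differed from PR2 in cat2 against Col-0, where it was not called at 0 h (-1.41 ± 0.80, adjusted p = 0.212) or at 24 h (-1.73 ± 0.76, adjusted p = 0.0543). In cat2shr against shr at 24 h BG3 was lower (-2.3 ± 0.53, adjusted p = 0.00118), where PR2 was not called. BG1, also of that cluster, had at most 0.134 CPM in any library. Of 15 tested thaumatin-like relatives of PR5, 2 were higher and 5 lower in shr at 0 h, with a median log2 of -0.18, and 1 was higher and 4 lower at 24 h, where 45.3% of all genes were called at 0 h and 52.7% at 24 h.

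The PR genes and defensins known as jasmonate and ethylene markers mostly rose under stress, where PR1, PR2 and PR5 were not called. Of the 10 tested, 9 rose in cat2shr, 5 rose and 2 fell in shr, 9 rose in cat2 and 7 rose in Col-0, where 32.7%, 20.4%, 38.7% and 29.7% of all genes rose, with median log2 of 2.04, 0.65, 3.64 and 4.65 (3.70 in Col-0 with PDF1.1, which had no count at 0 h, at its bound). PR4, a hevein-like gene, rose by log2 1.99 ± 0.33 in cat2shr (adjusted p = 4.49e-05), 1.15 ± 0.33 in shr (adjusted p = 0.00883), 3.14 ± 0.35 in cat2 (adjusted p = 2.15e-07) and 4.77 ± 0.39 in Col-0 (adjusted p = 1.31e-08). PR4 had 220, 274 and 174 CPM in Col-0 at 24 h, against 6.33, 6.9 and 11.4 CPM at 0 h. The defensin gene PDF1.2 rose by log2 3.04, 2.84, 5.46 and 6.37 in the same genotypes. PR3, a chitinase gene, rose by 1.34 in cat2shr, 2.95 in cat2 and 2.63 in Col-0 and was not called in shr (-0.11 ± 0.32, adjusted p = 0.809). Like the salicylic acid markers, all 10 were higher in shr against Col-0 before stress, where 21.3% of all genes were, with a median log2 of 3.66, and at 24 h 2 were higher and 1 lower, where 52.7% of all genes were called. The smaller response of shr than of Col-0 was called for PR3 (-2.74 ± 0.53, adjusted p = 0.00119), PR4 (-3.62 ± 0.48, adjusted p = 6.15e-05) and PDF1.2 (-3.53 ± 0.80, adjusted p = 0.00411). A gene not called may still have a large estimate. In Col-0 the stress response of PR1 (3.44 ± 3.08) was above that of PR3, and the fit of the Col-0 libraries alone called PR1 and PR2.

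**Figure D4:**
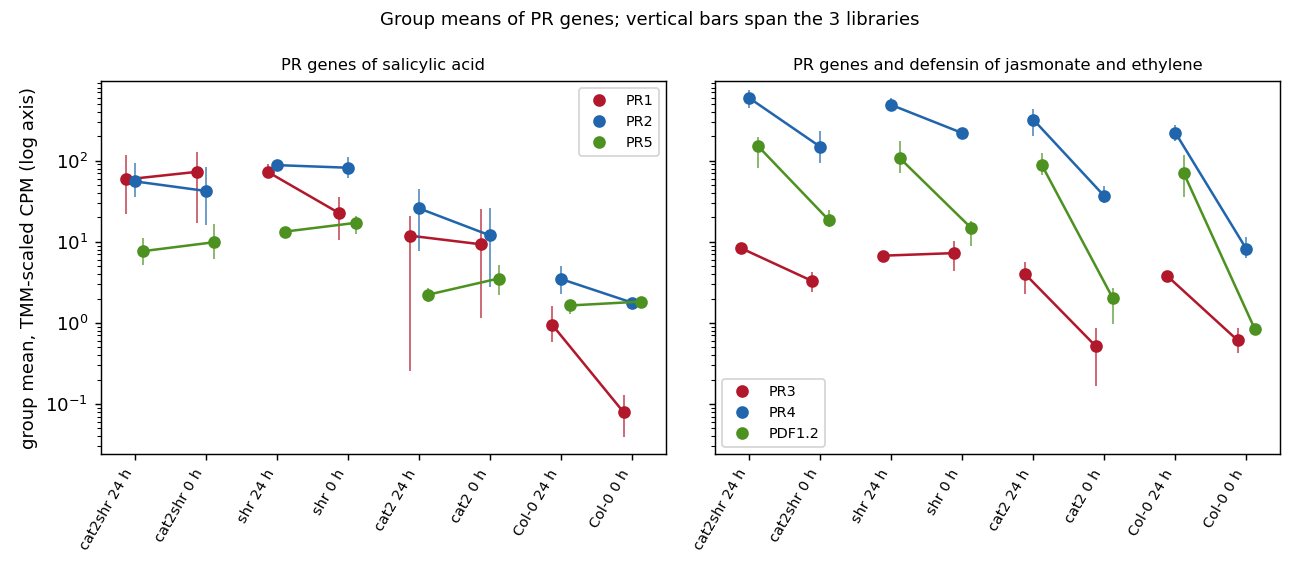
Group means (points) and the range of the 3 libraries (vertical bars) of PR1, PR2 and PR5 (left) and PR3, PR4 and PDF1.2 (right), in TMM-scaled CPM on a log axis, with a line joining 24 h and 0 h of each genotype. The log2 changes run from 1.15 (shr) to 4.77 (Col-0) for PR4 and from 2.84 to 6.37 for PDF1.2, PR3 rises except in shr (-0.11), PR1 has its steepest lines in Col-0 (3.44) and shr (1.68), which were not called, and PR5 stays within -0.67 to -0.17.

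Secreted PR proteins pass through the endoplasmic reticulum, whose chaperone genes are known to rise with NPR1 signalling. Of 9 such genes 8 were higher in shr against Col-0 at 0 h and all 9 at 24 h, where 21.3% and 25.8% of all genes were, with median log2 of 0.60 and 0.79. The binding protein gene BIP2 was higher by 1.32 ± 0.14 at 24 h (adjusted p = 2.69e-07). In cat2shr against cat2, 7 of the 9 were higher at 0 h, where 17.2% of all genes were, and 4 were higher and 1 lower at 24 h, where 55.1% were called, the lower one being BIP3 (-3.61 ± 0.69, adjusted p = 0.000251).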

How the data were processed

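RNA from shoots was made into libraries with a stranded mRNA kit, per the labels' protocols. Per the submitters' processing notes, the genome was TAIR10 and the tools were TopHat2 2.1.0, Trim Galore 0.3.3 and, from Subread 1.4.6, featureCounts. Neither the strand setting nor the gene annotation is given in those notes or labels. The authors deposited raw counts per locus in a single table, and its columns were matched to samples by their titles. Loci low in counts were removed (edgeR filterByExpr by group). The 24 libraries were then fitted together with 1 mean per group by the robust quasi-likelihood F test of edgeR 4.0.16 in R 4.3.3, with TMM scaling and 17 contrasts. P-values were adjusted by Benjamini-Hochberg over 20347 genes, and calls were made at 0.05. SEs were computed from each fold change and its F. All replicate pairs differed by more than sampling noise, with a chi-square per gene of 9.44 to 54. Counting intervals are exact and cover counting error only, and reads carry no molecular identifiers. The fit was tested on simulated data in which every gene had the same spread between libraries. That test does not cover genes as variable within groups as PR1.

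The members and gene lists were chosen with earlier results of these data known. Genes named beyond the members were the list members of smallest adjusted p (up to 3) in the stress responses and in cat2shr against cat2 at 24 h, ICS1, EDS1, PAD4, NPR1, WRKY70, SARD1, CBP60g, ALD1, FMO1, BG3, PRB1, PR3, PR4 and PDF1.2 whatever their values, and the 5 genes most like each member. BIP2, BG1, BSMT1, PDF1.1, PHT1;1 and SCR were named after their values were seen, and not every gene the rule allows is named. Promoters came from the RefSeq annotation of TAIR10.1. The sequence upstream of PR1 is not reported here. The table holds no coordinates, so its build was matched by name only. The alternatives were RLE or library-size scaling, other filters on low counts, a replicate block, no robust estimation, only the groups compared, DESeq2 1.42.0, and leaving out libraries.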

Additional observations from a re-analysis of the deposited data

How the results depend on the processing

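All 3 PR genes stayed called higher in shr against Col-0 at both times in each of 15 alternatives, at log2 7.59 to 8.61 for PR1, 5.29 to 5.74 for PR2 and 3.12 to 3.45 for PR5 at 0 h. In 0 of 28 pairs of groups did all 3 same-numbered correlations exceed 0.1, but 16 of 24 libraries correlated best with their own number. These values do not decide whether the replicate numbers pair the samples. With the replicate block the number of PR genes called became 1 in cat2shr against cat2 at 0 h, 1 in cat2 against Col-0 at 24 h and 1 in cat2shr against shr at 24 h. Without a filter on low counts it became 1 in cat2shr against cat2 at 0 h and 1 in cat2 against Col-0 at 24 h. With only the groups compared it became 2 in the stress response of Col-0, 1 in that of shr, 1 in cat2 against Col-0 at 0 h, 0 in cat2shr against cat2 at 0 h and 1 in cat2shr against shr at 24 h. DESeq2 gave 1 in the stress response of Col-0, 1 in cat2shr against shr at 24 h, and 3 rather than 2 in cat2 against Col-0 and in cat2shr against cat2 at 0 h. In cat2shr against shr at 24 h, library-size scaling, a filter of 5 CPM in 3 libraries and no robust estimation also gave 1. Library-size scaling gave 3 in cat2 against Col-0 at 0 h, and the 5 CPM filter and no robust estimation each gave 3 in cat2shr against cat2 at 0 h. Without both first libraries of shr and cat2shr at 0 h the count became 3 in cat2 against Col-0 at 0 h, 1 in the stress response of cat2, 1 in cat2shr against cat2 at 0 h and 1 in cat2shr against shr at 24 h.

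Leaving out 1 library gave 0 to 3 genes called in cat2 against Col-0 at 0 h and 1 to 2 at 24 h, 1 to 3 in cat2shr against cat2 at 0 h, 0 to 1 in cat2shr against shr at 0 h and at 24 h, and 0 to 2 in the stress response of cat2. Some values that were not called in the joint fit of all libraries changed sign. Without both first libraries PR1 and PR5 had a stress response of 0.32 and 0.20 in cat2shr, the response of cat2shr against that of cat2 was 0.05 for PR1 and 0.29 for PR2, and that of cat2shr against that of shr was 0.39 for PR5. Library-size scaling gave -0.03 for PR2 in the response of cat2 against that of Col-0, and it moved the median of all genes by up to -0.234 (log2). Leaving out 1 library gave sign changes within these ranges of log2 values. PR1 was at -0.38 to 3.28 for stress in cat2, -1.37 to 0.32 for stress in cat2shr, -1.37 to 0.06 for cat2shr against shr at 24 h, -3.62 to 0.07 for the response of cat2shr against cat2 and -1.85 to 1.84 in the three-way term. PR2 was at -0.04 to 0.41 for stress in shr, -0.23 to 1.33 for stress in cat2shr, -0.50 to 1.39, -2.01 to 0.29 and -0.35 to 1.2 for the responses of cat2 against Col-0, cat2shr against cat2 and cat2shr against shr, and -1.14 to 1.18 in the three-way term. PR5 was at -0.22 to 0.01 for stress in Col-0, -0.78 to 0.20 for stress in cat2shr, -0.06 to 0.94 for the response of cat2shr against cat2 and -0.43 to 0.54 for that of cat2shr against shr. The causes were not tested. The 7 counts of PR1 in Col-0 at 0 h limit every fold set against them.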

Other observations

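Most senescence genes rose under stress in each genotype. Of 6 tested, 5 rose in cat2shr, 4 in shr, 5 rose and 1 fell in cat2 and 5 rose in Col-0, where 32.7%, 20.4%, 38.7% and 29.7% of all genes rose, with median log2 of 3.26, 1.49, 4.63 and 4.41. NAC092, a regulator of leaf ageing, rose by log2 4.00 ± 0.39 in cat2shr (adjusted p = 1.15e-07), 3.67 ± 0.39 in shr (adjusted p = 1.53e-06), 4.97 ± 0.42 in cat2 (adjusted p = 5.1e-09) and 4.45 ± 0.40 in Col-0 (adjusted p = 5.19e-08). AT4G16260, another gene of the glucanase list, rose by 4.10 ± 0.66 in cat2shr (adjusted p = 2.85e-05), 4.79 ± 0.68 in cat2 (adjusted p = 4.59e-06) and 7.67 ± 0.86 in Col-0 (adjusted p = 6.77e-07), and was not called in shr (1.01 ± 0.58, adjusted p = 0.173). In shr against Col-0 it was higher at 0 h (6.06 ± 0.84, adjusted p = 2.25e-05) and not called at 24 h (-0.6 ± 0.57, adjusted p = 0.4). Markers of the leaf list fell under stress in 4 of 4 members in cat2shr, shr and cat2 and in 3 of 4 in Col-0, where 31.7%, 20.9%, 36.3% and 29.6% of all genes fell. Of 5 tested floral markers 4 rose in cat2, and of 3 tested root markers 1 fell in cat2 and 1 in cat2shr, where 75.0% and 64.4% of all genes were called. Their part in the PR values was not tested.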
